A study of Mus musculus with 24 samples.

Results

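The cytochrome P450s (Cyp genes), UDP-glycosyltransferases (Ugt), glutathione S-transferases (Gsta, Gstk, Gstm, Gsto, Gstp, Gstt, Gstz and the membrane-bound Mgst) and sulfotransferases (Sult) were followed in the proximal colon of IL-10 knock-out (KO) mice. A gene belonged to these families if its probe symbol began with a family name, and Cyp24a1, Cyp27b1, Cyp27a1, Cyp2r1 and Cyp51 were left out. This gave 144 of the 19057 genes on the array, namely 82 P450s, 21 UDP-glycosyltransferases, 25 glutathione S-transferases and 16 sulfotransferases, measured by 223 probes. Each gene was read from its probe with the highest mean level.

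The mice were males of the 129/SvEv IL-10 KO strain, 3 months of age, and 1 array was run for each of 24 mice. All of them lacked IL-10, the cytokine whose loss leads to spontaneous colitis in this model, and no wild-type or female array was analysed here. HH mice (n = 6) had mothers fed 5000 IU vitamin D per kg diet in pregnancy and lactation and ate the same diet after weaning. HL mice (n = 6) had mothers on 5000 IU/kg and ate 25 IU/kg, LH mice (n = 6) had mothers on 25 IU/kg and ate 5000 IU/kg, and LL mice (n = 6) received 25 IU/kg in both periods. The question was whether vitamin D in early life or after weaning altered gene expression in the colon. Mice are named here by their group and the label of their mother (HL 10B, for example). A total of 4 mother labels occurred in both post-weaning groups of the same maternal diet, so a few mice may be siblings. The p-values measure the spread between these mice.

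P450s oxidise lipophilic compounds with electrons from NADPH, and the 3 families of conjugating enzymes then attach glucuronic acid, glutathione or sulfate, which makes the products more soluble and easier to export. The same enzymes also handle the body's own molecules, among them steroids, bile acids, retinoids and arachidonic acid products such as leukotrienes. In the intestine they form a metabolic barrier in the epithelium, and many are switched on by the nuclear receptors PXR (Nr1i2), CAR (Nr1i3) and VDR, by the aryl hydrocarbon receptor (AHR) or by the stress-response factor NRF2.

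Levels are log2 intensities after quantile normalization, a step that gives every array the same distribution of values. They compare mice for 1 probe and not genes with each other. A probe was called detected at a score above 0.99, and undetected probes had a median level of 7.09. The mean raw intensity was 245 to 637 per array, and 21.2% to 37.0% of the 45281 probes were detected. In 3 mice the mean of the colitis inflammation genes was 9.07 (HL 10B), 9.16 (HH 10B) and 9.47 (LL 6), while it was 9.79 to 10.38 in the other 21 mice. The smooth muscle genes averaged 11.07 to 11.35 in these 3 mice and 10.13 to 10.71 in the others. Because these 3 libraries stood apart, several results are also given without them. Of the 29 colonocyte markers on the array, 26 were detected on at least 12 arrays, although the epithelial marker Epcam was detected on 0. The liver markers Alb, Apoa2, Fgb, Ahsg and Tat were detected on 0 arrays. Of 12 exocrine pancreas markers, 10 were detected on at most 3 arrays, and Prss2 was detected in HL 8C, LL 12 and LL 13A.

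Most of the enzyme genes were not detected in this tissue. On at least 12 of the 24 arrays, 52 of the 144 genes (36.1%) were detected, against 46.7% of all genes, and 34 of the 52 were detected on all 24. A further 22 genes were detected on 1 to 11 arrays. The remaining 70 (48.6%, against 37.2% of all genes) were detected on 0 arrays. The share of genes detected differed widely between the families, which is a description of this array and tissue and not a test.

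**Figure D1:**
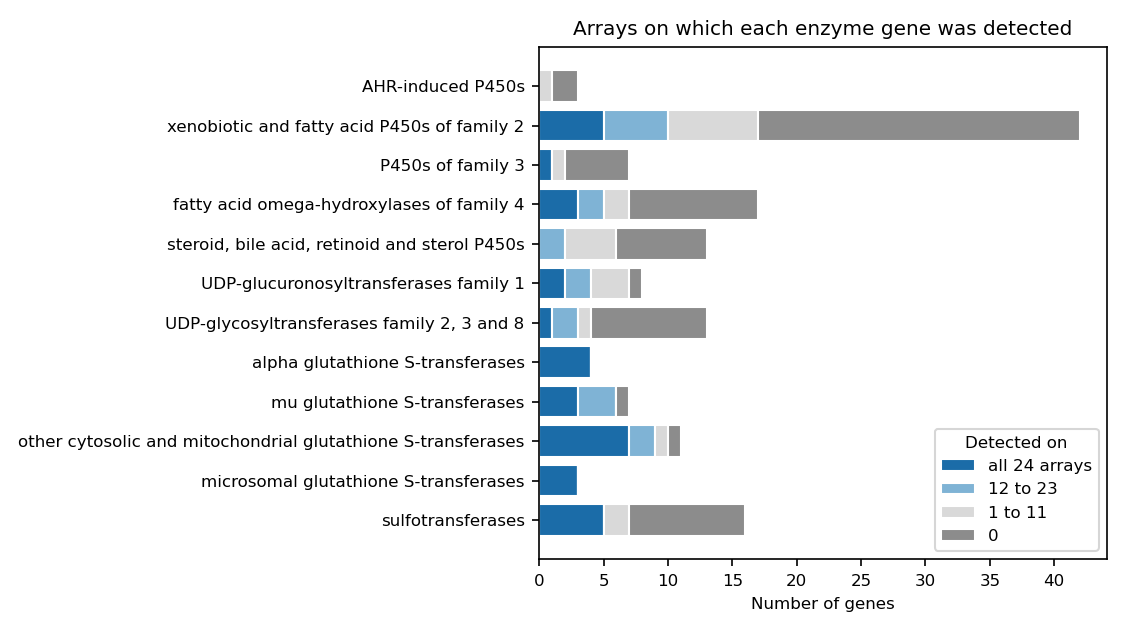
Number of enzyme genes (horizontal axis) in each enzyme group (vertical axis), divided by the number of arrays on which the gene was detected. All 4 alpha and all 3 microsomal glutathione S-transferases were detected on all 24 arrays, while 25 of the 42 P450s of family 2 were detected on 0.

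The glutathione S-transferases were the most widely detected of the families. On at least 12 arrays, 22 of the 25 were detected, and 17 of these on all 24. They included all 4 alpha-class genes (Gsta1 to Gsta4, a class that conjugates products of lipid peroxidation), 6 of 7 mu-class genes and all 3 microsomal genes. Of the microsomal genes, Mgst2 is also able to make leukotriene C4. Gstk1, a mitochondrial and peroxisomal enzyme, lay between 10.65 and 11.30 and had the smallest SD over the mice (0.16) of the 34 genes detected on all arrays. Gstm3 and Gsto2 were detected on 0 arrays.

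The P450s were detected less often, with 18 of 82 on at least 12 arrays and 49 on 0. The detected genes were Cyp2c55 and Cyp2c65, which oxidise arachidonic acid, 6 of 8 Cyp2d genes, Cyp2j9, Cyp2s1, the intestinal Cyp3a13, Cyp4f13, Cyp4f14, Cyp4f16, Cyp4f40 and Cyp4v3 of the fatty acid omega-hydroxylases, the oxysterol 7-alpha-hydroxylase Cyp7b1 and Cyp20a1. The classical AHR-induced genes Cyp1a1 and Cyp1a2 were detected on 0 arrays and Cyp1b1 on 1. The hepatic bile acid enzymes Cyp7a1 and Cyp8b1, Cyp3a11 and Cyp3a25 (liver drug-metabolising enzymes), Cyp2j6 and the retinoic acid hydroxylase Cyp26b1 were also detected on 0. Cyp2e1, the ethanol-inducible P450, was detected on 10 arrays, Cyp4b1 on 4, Cyp3a44 and Cyp26a1 on 2, and the CAR target Cyp2b10 and the steroidogenic Cyp11a1 on 1 each. An undetected probe is not evidence that a gene is silent.

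Among the UDP-glycosyltransferases, 7 of 21 were detected on at least 12 arrays. These were Ugt1a6a, Ugt1a6b, Ugt1a7c, Ugt1a10, Ugt2b34, Ugt2b35 and Ugt2b36. Ugt1a1, the bilirubin-conjugating enzyme, was detected on 6 arrays, and Ugt2b5 and Ugt8a, the galactosyltransferase of myelin lipids, on 0. Ugt1a genes share their last exons, so a probe there cannot separate them. The Gstm, Gstp, Cyp2c, Cyp2d and Cyp4f genes also have close relatives. The position and specificity of each probe were not examined here, so names follow the probe symbols. The sulfotransferases had 5 of 16 genes detected on at least 12 arrays, and all 5 were detected on all 24 arrays. They were Sult1a1, which sulfates phenols, Sult1c2, Sult1d1, the cholesterol and hydroxysteroid enzyme Sult2b1 and Sult4a1, which has no well-defined substrate. Sult1b1 was detected on 0 arrays and Sult2a1 on 1.

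The detected enzyme genes varied more between mice than a typical gene. Over the 34 genes detected on all arrays the median SD was 0.327, against 0.265 for all 5547 such genes, and 26 of the 34 lay above the latter value. Cyp2c55 varied most, from 7.35 to 11.95 with a median of 8.95 and an SD of 1.07. Sult1c2 (7.96 to 10.92, SD 0.66), Sult1a1 (10.37 to 13.07, SD 0.57), Ugt2b34 (8.44 to 10.37, SD 0.55), Sult1d1 (9.14 to 11.75, SD 0.55) and Cyp2d9 (7.54 to 9.73, SD 0.54) followed. The next in order were Cyp2c65 with an SD of 0.49, Cyp4f14 with 0.44, Ugt1a6a with 0.41 and Gsta3 with 0.39. Without HL 10B, HH 10B and LL 6 the order changed. Over the other 21 mice the SD was 0.77 for Cyp2c55, 0.56 for Ugt2b34, 0.46 for Cyp2c65, 0.43 for Ugt1a6a, 0.41 for Gsta3 and for Sult1d1, 0.36 for Sult1a1, 0.33 for Cyp4f14 and 0.32 for Cyp2d9 and for Sult1c2. The median SD was then 0.308, against 0.259 for all genes, and 25 of the 34 lay above the latter. Neighbours in this order were not tested against each other.

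High levels of several of these genes fell in the same mice. Cyp2c55 was at 11.95 in HL 10B, 10.63 in HH 10B and 10.58 in LL 6, and HL 14A (10.81) was the only one of the other 21 mice above 10. Sult1c2 was at 10.92, 10.05 and 9.56 in the same 3 mice and between 7.96 and 9.08 in the others. Sult1a1 was at 13.07, 12.27 and 12.07, and between 10.37 and 11.75 in the others. For these 2 sulfotransferases the 3 mice, which came from 3 different diet groups, lay above all 21 others. HH 10B and HL 10B share the mother label 10B and may be siblings, so the 3 mice may not be independent. Cyp2d9 was at 9.57, 8.87 and 9.73, with HL 10 (8.92) within that range. Of the enzyme genes detected on all arrays, only the 2 sulfotransferases had all 3 mice above the 21 others. A further 5 had 2 of the 3 above, 12 had 1 and 15 had 0. The 5 were Cyp2d9, Cyp3a13, Cyp4f14, Gstm2 and Sult1d1, while Cyp2c55 was among the 12. All 3 lay above the median of the 21 in 19 genes and 0 in 3 (Gsta3, Gstp2 and Mgst1). These counts were not taken over all genes and have no background beside them. The sequences of 250 bases just before the start of Cyp2c55, Cyp2d9, Sult1a1 and Sult1c2 are shown because their levels were high in the same mice. They are RefSeq sequences of build GRCm38.p6, 5′ to 3′ on the strand of the gene, with a TATA box (TATAAA, or its reverse complement TTTATA) in capitals.
Cyp2c55, chr19:39006769-39007018, plus strand: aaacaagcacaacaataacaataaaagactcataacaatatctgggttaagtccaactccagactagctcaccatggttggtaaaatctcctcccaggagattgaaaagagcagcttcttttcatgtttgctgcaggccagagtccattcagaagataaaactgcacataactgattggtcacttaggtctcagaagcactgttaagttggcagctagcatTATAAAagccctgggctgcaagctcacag
Cyp2d9, chr15:82452127-82452376, plus strand: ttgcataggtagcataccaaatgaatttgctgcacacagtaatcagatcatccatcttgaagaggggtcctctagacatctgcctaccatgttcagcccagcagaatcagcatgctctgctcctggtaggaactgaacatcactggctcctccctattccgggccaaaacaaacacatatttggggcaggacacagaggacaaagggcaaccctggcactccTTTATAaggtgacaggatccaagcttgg
Sult1a1, chr7:126676419-126676668, minus strand: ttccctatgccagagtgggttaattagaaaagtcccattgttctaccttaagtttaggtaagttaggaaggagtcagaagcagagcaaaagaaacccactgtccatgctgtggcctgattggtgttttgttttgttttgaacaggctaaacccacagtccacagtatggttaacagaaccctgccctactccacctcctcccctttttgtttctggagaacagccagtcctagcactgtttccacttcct
Sult1c2, chr17:53845959-53846208, minus strand: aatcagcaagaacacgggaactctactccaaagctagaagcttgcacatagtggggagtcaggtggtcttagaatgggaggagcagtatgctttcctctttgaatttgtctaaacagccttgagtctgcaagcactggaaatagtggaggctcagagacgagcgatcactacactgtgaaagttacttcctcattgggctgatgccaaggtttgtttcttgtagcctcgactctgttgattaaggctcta
The TATA box letters began 29 bases before the start in Cyp2c55 and, on the other strand, 28 bases before it in Cyp2d9. Searched on both strands, these letters were found in 12.4% of all 32851 promoters of this length and in 26.1% of the 134 promoters of the enzyme genes, which covered 114 of the 144. The nuclear receptor half-site AGGTCA (14% of all promoters, 20.1% of those of the enzyme genes), its variant AGTTCA (11.8% and 11.9%), the NRF2 core TGACNNNGC (10.2% and 5.22%) and the AHR core GCGTG (28.2% and 19.4%) were not in these 4 windows. A match of letters is a description only.

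**Figure D2:**
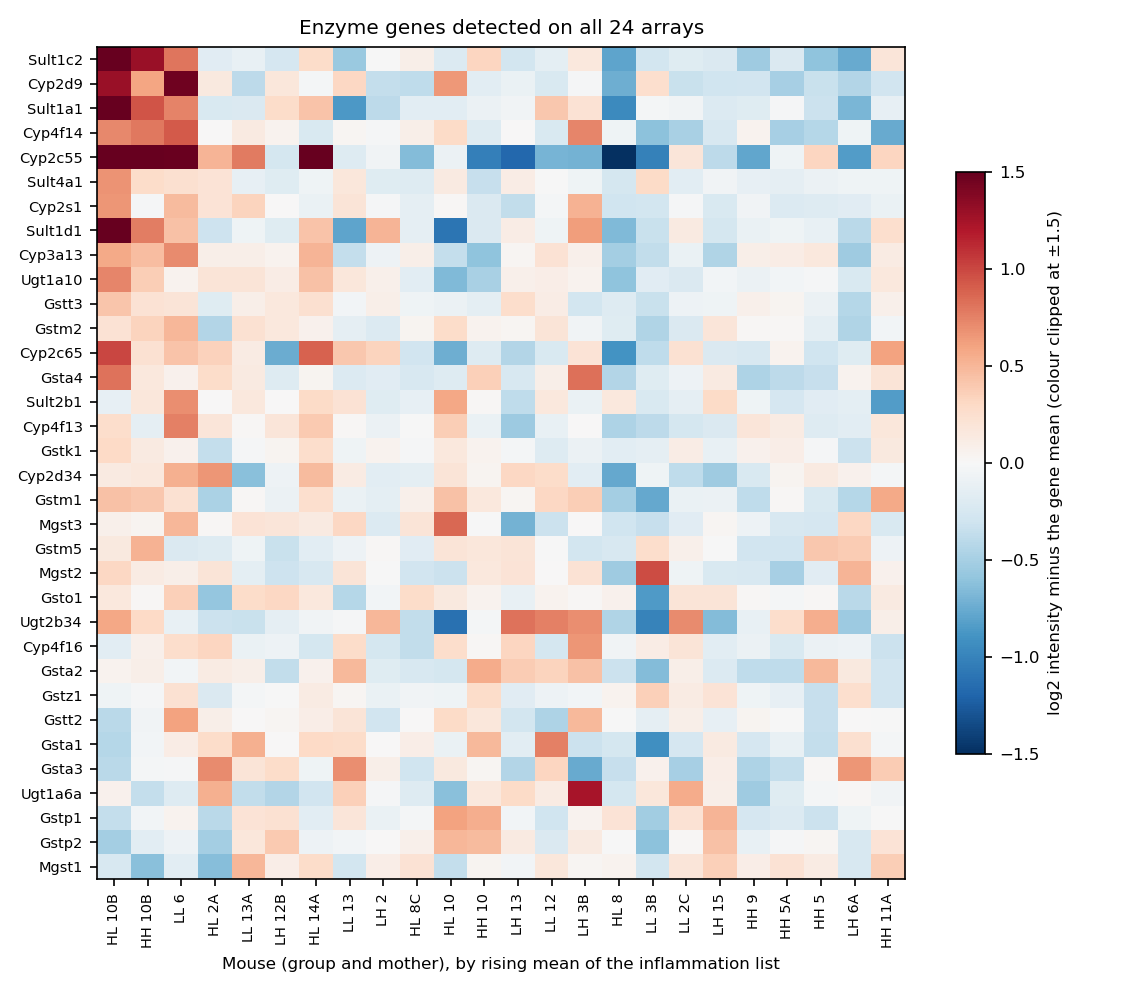
Level of each of the 34 enzyme genes detected on all arrays (rows) in each mouse (columns, by rising mean of the inflammation genes), as log2 intensity minus the mean of the gene, with red above and blue below it. The 3 leftmost mice are HL 10B, HH 10B and LL 6. Sult1c2 and Sult1a1 are the only 2 of the 34 genes higher in all 3 than in all 21 other mice.

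Post-weaning diet compared mice that ate the high diet (HH and LH) with mice that ate the low diet (HL and LL). Of 31298 probes tested with limma, 0 passed an adjusted p of 0.05 (smallest adjusted p = 0.944) and 1322 had an unadjusted p under 0.05. Of the enzyme genes, 102 were tested and 3 had an unadjusted p under 0.05 (Cyp7b1, Sult2b1 and Cyp2c40), against 4.38% of all genes tested, so the share of the enzyme genes was near that of the background. Among the 52 genes detected on at least 12 arrays, 24 were higher and 28 lower on the high diet, with differences from -0.52 to 0.29. Their median difference was -0.01, and that of all genes was -0.01. The count was 1 without LL 6 or HH 11A and 5 without LL 13A or LH 6A. In the median gene the 95% confidence interval reached 0.25 to each side of the difference (n = 12 each).

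Cyp7b1, which hydroxylates oxysterols and some steroids, was detected on 19 arrays. Its lowest, median and highest levels were 7.35, 7.75 and 7.82 in HH, 7.37, 7.75 and 7.90 in LH, 7.17, 7.5 and 7.78 in HL, and 7.40, 7.53 and 7.81 in LL mice. The groups overlapped, although 10 of the 12 mice on the high diet were above the mean of the low diet. HH and LH mice averaged 7.69 ± 0.18 and HL and LL mice 7.52 ± 0.18 (SD, n = 12 each), a difference of 0.18 (SE 0.073, 95% CI 0.03 to 0.33, limma unadjusted p = 0.0244, adjusted p = 0.944). With a background correction (neqc) the difference was 0.48.

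Sult2b1 went the other way. Its lowest, median and highest levels were 8.29, 9.01 and 9.30 in HH, 8.75, 9.00 and 9.41 in LH, 9.00, 9.21 and 9.71 in HL, and 8.90, 9.28 and 9.83 in LL mice. All groups overlapped, and 2 of 12 mice on the high diet were above the mean of the low diet. HH and LH mice averaged 8.99 ± 0.29 and HL and LL mice 9.27 ± 0.29 (SD, n = 12 each), with a difference of -0.28 (SE 0.116, 95% CI -0.52 to -0.04, limma unadjusted p = 0.0259, adjusted p = 0.944). The other Sult2b1 probes that were detected differed by -0.04 and -0.05 (unadjusted p = 0.557 and 0.615, n = 12 each), and the mean over all its probes by -0.12. Cyp2c40, the third gene, was detected on 0 arrays.

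None of the other named enzyme genes had an unadjusted p under 0.05. Of the conjugating enzymes, Gstp2 (difference 0.22, SE 0.113), Ugt2b34 (0.29, SE 0.213) and Gstm6 (0.09, SE 0.0831) had positive differences, as had Cyp4v3 (0.12, SE 0.093). Gstp1, Gstp2 and Gstp3, the pi class, all had positive differences (0.05, 0.22 and 0.08), but pi-class genes are close relatives whose probes may share signal. Negative differences were found for Cyp2s1 (-0.18, SE 0.106), an epithelial P450, for Sult4a1 (-0.15, SE 0.0892), Cyp2d9 (-0.33, SE 0.213) and the membrane enzyme Mgst3 (-0.19, SE 0.126). Several of these differences were smaller without 1 mouse, though they kept their sign. Without HL 10B the difference was -0.11 for Cyp2s1 and -0.09 for Sult4a1, without LL 6 it was -0.20 for Cyp2d9, and without HL 10 -0.12 for Mgst3. Without HL 2A it was 0.06 for Cyp4v3 and for Gstm6, and without LL 3B 0.19 for Ugt2b34. In Cyp2s1, 1 of 12 mice on the high diet was above the mean of the low diet. Among the sulfotransferases 1 difference was positive (Sult1d1, 0.16) and 4 were negative, with a median of -0.15, and among the detected family 2 P450s 3 were positive and 7 negative, with a median of -0.16. These counts and medians were not taken again without HL 10B, HH 10B and LL 6.

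Marker genes of other cell types were set beside the same comparison, and 0 of them passed an adjusted p of 0.05. Of all 8901 detected genes, 4216 had positive differences. Of 13 detected smooth muscle markers, 12 had negative differences (median -0.19). Of the 14 tested, 2 had an unadjusted p under 0.05, both lower on the high diet. The 3 mice that stood apart were split by this diet. HL 10B and LL 6 ate the low and HH 10B the high diet. Their smooth muscle means were 11.07 to 11.35, against 10.13 to 10.71 in the other 21 mice. Their inflammation means were 9.07 to 9.47, against 9.79 to 10.38. The marker counts and medians given here were not taken again without these 3 mice. The summed level of all 15 smooth muscle markers on the array was 35506 to 56439 in HH, 29020 to 44541 in LH, 33372 to 66039 in HL and 33169 to 71101 in LL mice. Of 32 detected inflammation genes, 26 had positive differences (median 0.11). Of the 38 tested, 5 had an unadjusted p under 0.05 on the higher and 1 on the lower side. Of all 15009 genes tested, 263 had such a p on the higher and 394 on the lower side. The summed level of all 39 inflammation genes on the array was 87485 to 112246 in HH, 100220 to 112227 in LH, 91835 to 118794 in HL and 92626 to 114328 in LL mice. Of the 12 pancreas markers, the 2 detected on at least 12 arrays had negative differences (Cela1 and Clps). The summed level of all 12 reached 20681 in HL and 10718 in LL mice but 3318 in HH and 3455 in LH mice. The 3 mice with Prss2 detected were all on the low post-weaning diet. Without them 5 of 104 enzyme genes (4.81%) had an unadjusted p under 0.05, against 7.29% of all genes, and without the 3 mice lowest for inflammation 2 of 104 (1.92%), against 3.83%. The part of these cell types in the enzyme levels was not tested, and in whole tissue fewer cells of a type and less RNA per cell cannot be told apart.

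**Figure D3:**
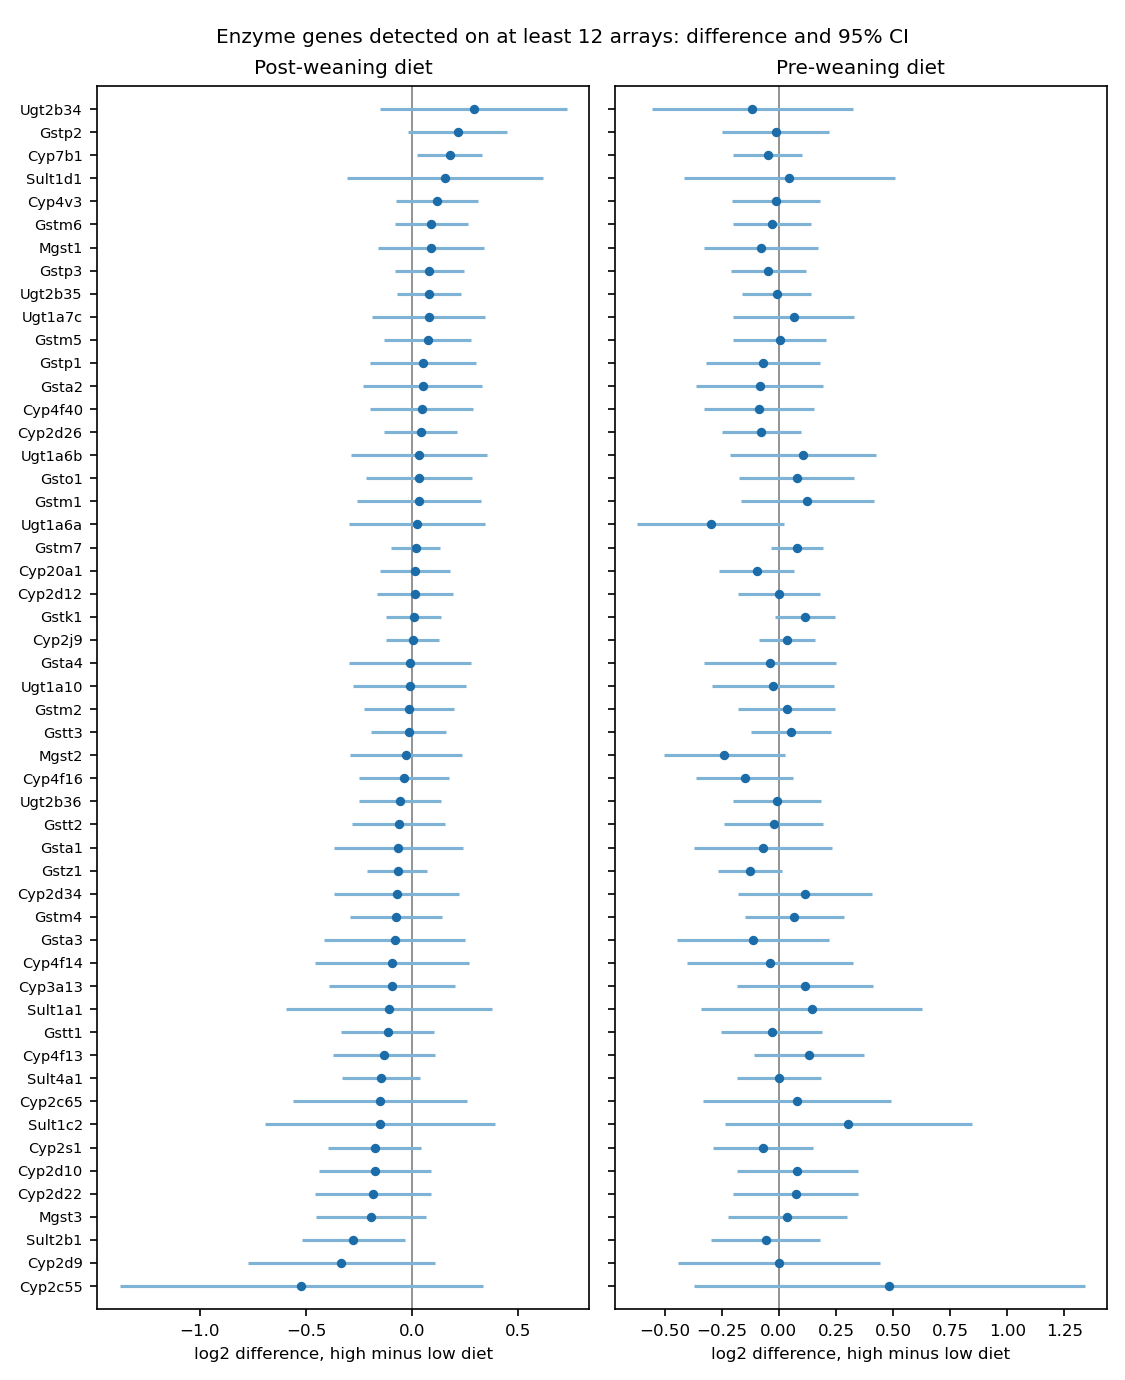
Difference of mean log2 intensity between high and low diet (points) with its 95% confidence interval (lines) for each of the 52 enzyme genes detected on at least 12 arrays, in separate panels for the post-weaning and the pre-weaning diet. Only the intervals of Cyp7b1 (0.03 to 0.33) and Sult2b1 (-0.52 to -0.04), both for the post-weaning diet, leave out 0, and that of Cyp2c55 is wide in both panels.

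Pre-weaning diet compared mice whose mothers ate the high diet (HH and HL) with those whose mothers ate the low diet (LH and LL). Of 31308 probes, 0 passed an adjusted p of 0.05 with limma and 851 had an unadjusted p under 0.05. Of the 105 enzyme genes tested, 0 had an unadjusted p under 0.05, against 2.2% of all genes tested. Among the 52 detected genes the median difference was -0.01, beside 0.01 for all genes, and the differences ranged from -0.30 to 0.48. Leaving out 1 mouse gave counts of 0 to 3, the latter without LL 3B, LL 13A or HL 2A. For the same diet 24 of the 32 inflammation genes had negative differences (median -0.09) and 11 of the 13 smooth muscle genes positive ones (median 0.11), while 4731 of all 8901 detected genes had positive ones. None of these marker genes had an unadjusted p under 0.05, and their part in the enzyme levels was not tested. Of the 3 mice that stood apart, HH 10B and HL 10B had mothers on the high diet and LL 6 on the low diet. These marker counts and medians were not taken again without the 3 mice.

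Among the 52 detected genes, the smallest p was that of Ugt1a6a, which glucuronidates simple phenols. Its lowest, median and highest levels were 7.80, 8.22 and 8.49 in HH, 7.71, 8.10 and 8.87 in HL, 7.90, 8.38 and 9.57 in LH, and 7.97, 8.48 and 8.89 in LL mice. The groups overlapped, with the highest level in an LH mouse. The mean was 8.19 ± 0.31 with high and 8.49 ± 0.44 with low maternal diet (SD, n = 12 each), a difference of -0.30 (SE 0.155, 95% CI -0.62 to 0.02, limma unadjusted p = 0.0666), and it was -0.20 without LH 3B. A second Ugt1a6a probe, detected on 22 arrays, differed by 0.06 and had r = -0.31 with the first over the 24 mice, so the probes of this gene disagreed.

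Mgst2 had levels of 11.44, 11.89 and 12.10 (lowest, median and highest) in HH, 11.41, 11.68 and 12.25 in HL, 11.63, 12.04 and 12.45 in LH, and 11.79, 11.99 and 12.92 in LL mice. The groups overlapped, and the highest value belonged to LL 3B, a mouse with 21.9% of probes detected. The difference was -0.24 (SE 0.128, 95% CI -0.50 to 0.03, limma unadjusted p = 0.0742, n = 12 each), or -0.16 without LL 3B. Gstz1, the maleylacetoacetate isomerase of tyrosine breakdown, differed by -0.13 (SE 0.0685), Cyp4f16 by -0.15 (SE 0.102) and Cyp20a1 by -0.10 (SE 0.0799). The difference was -0.09 for Cyp4f16 without LH 3B and -0.06 for Cyp20a1 without HL 2A. Under median scaling in place of quantile normalization Gstz1 and Cyp4f16 changed sign, to 0.07 and 0.02. A second Cyp4f16 probe, detected on all 24 arrays, differed by -0.21 (limma unadjusted p = 0.0114, n = 12 each).

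On the other side, Gstk1 had levels of 10.98, 11.09 and 11.15 in HH, 10.65, 11.07 and 11.30 in HL, 10.68, 10.94 and 11.06 in LH, and 10.81, 10.96 and 11.11 in LL mice. Again the groups overlapped, with 10 of 12 mice of high-diet mothers above the mean of the others, and the difference was 0.11 (SE 0.063, 95% CI -0.02 to 0.24, limma unadjusted p = 0.0894, n = 12 each). Another Gstk1 probe, detected on all 24 arrays, differed by 0.05 (limma unadjusted p = 0.569, n = 12 each). Gstm7 differed by 0.08 (SE 0.0549), Sult1c2 by 0.30 (SE 0.262) and Cyp4f13 by 0.13 (SE 0.116, 0.21 without LL 6). Cyp2c55 had the widest spread. Its levels were 8.07, 9.22 and 10.63 in HH, 7.35, 9.31 and 11.95 in HL, 7.92, 8.55 and 9.04 in LH, and 8.08, 9.09 and 10.58 in LL mice. All of these ranges overlapped. The difference of 0.48 (SE 0.414, 95% CI -0.37 to 1.34, limma unadjusted p = 0.255, n = 12 each) was smaller than the SD among mice of high-diet mothers (1.29), and it was 0.24 without HL 10B and 0.70 without HL 8. Leaving out the same mice moved the difference of Sult1c2 to 0.11 and 0.41.

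**Figure D4:**
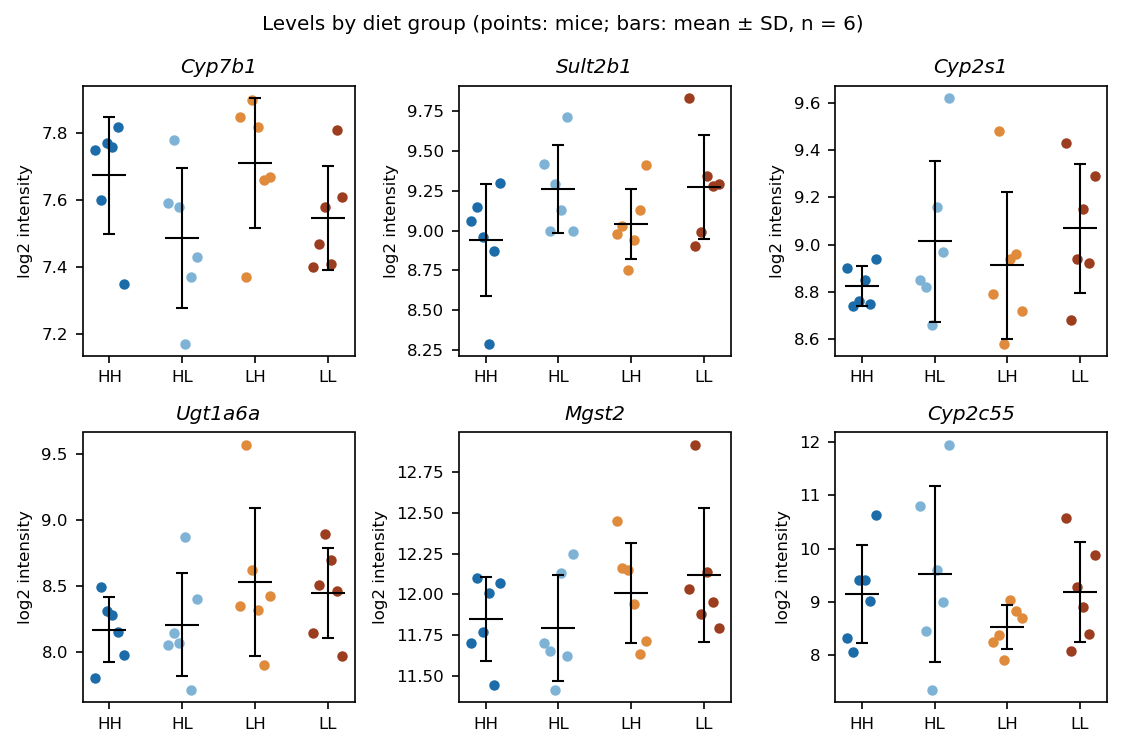
Log2 intensity of 6 enzyme genes (vertical axes) in the HH, HL, LH and LL groups (horizontal axes), where points are mice and bars the mean ± SD (n = 6). The groups overlap for every gene shown, and Cyp2c55 spans 7.35 to 11.95, both ends in HL mice.

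The interaction asked whether the difference by post-weaning diet depended on the diet of the mother. With limma, 0 of 37654 probes passed an adjusted p of 0.05. Of 121 enzyme genes tested, 2 had an unadjusted p under 0.05, against 2.47% of all genes tested, and both (Cyp2a4 and Cyp4a12b) were detected on 0 arrays. The count was 1 to 4 when 1 mouse was left out. The named genes were Cyp4v3 (0.24, SE 0.185), Cyp2j9 (0.12, SE 0.119) and Ugt2b34 (0.35, SE 0.425) with positive terms, and Cyp4f14 (-0.42, SE 0.35), Gsta4 (-0.23, SE 0.277) and Cyp4f40 (-0.19, SE 0.233) with negative terms. Leaving out 1 mouse gave -0.08 for Gsta4 and 0.08 for Cyp2j9 without HL 10B, -0.05 for Cyp4f40 without LL 3B, 0.11 for Cyp4v3 without HL 2A, 0.19 for Ugt2b34 without HL 10 and 0.55 without LL 3B. The negative terms became positive under median scaling (0.13, 0.16 and 0.20). In a test of any difference among the 4 groups, 0 probes passed, and 1 of 121 enzyme genes had an unadjusted p under 0.05, against 2.27% of all genes tested. For the interaction, the confidence interval reached a median of 0.49 to each side.

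The genes that supply, regulate or complement these enzymes likewise had 0 members past an adjusted p of 0.05 in each comparison. Of 17 receptors and partners, 11 were detected on at least 12 arrays, among them Vdr, the PXR gene Nr1i2, the bile acid receptor Nr1h4 and Hnf4a, each on all 24, while Ahr, Rxra and Ppara were detected on 0 and Nr1i3 on 2. Vdr differed by -0.07 (SE 0.151) between post-weaning diets, Rxrb by -0.30 (SE 0.158) and Nr1i2 by -0.11 (SE 0.0642). Of 9 detected transporters, 2 had positive and 7 negative differences for the post-weaning diet, and Slco4a1, an organic anion carrier, had the smallest p (-0.20, limma p = 0.0219, n = 12 each). Of 5 other detected conjugation enzymes, 3 were higher and 2 lower. Nnmt, the nicotinamide N-methyltransferase, differed by -0.21 (SE 0.114). Inmt, another methyltransferase, was detected on 9 arrays and differed by -0.41 (limma unadjusted p = 0.00863, n = 12 each). Of 9 detected NRF2 targets outside the enzyme families, 8 were higher and 1 lower, with the cystine carrier Slc7a11 at 0.29 (SE 0.16). Of 11 electron donors and cosubstrate enzymes, 8 were higher (Cyb5a, 0.14, SE 0.0819), and of 24 other phase I enzymes 11 were higher and 13 lower (Ces1d, -0.30, SE 0.191). The AHR targets outside the families included 3 detected genes, all with positive differences (Nqo1, 0.09, SE 0.0702).

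Differences between mice were also set beside the makeup of the tissue, with permutation p-values adjusted over all genes detected on all arrays. Against the mean of the inflammation genes over all 24 mice, 7 of the 34 enzyme genes passed with a negative r (Sult1c2, Cyp2d9, Sult1a1, Cyp4f14, Cyp2c55, Sult4a1 and Cyp3a13) and 0 with a positive r, against 3.09% and 2.28% of all genes. By Spearman's rho 0 passed, against 0.145% of all genes with either sign. The permutations treated all mice as independent, although HH 10B and HL 10B share a mother label. The 3 mice formed a separate cluster on the mean of the inflammation genes, so r was taken over the other 21 mice. There it was -0.16 for Sult1c2, -0.41 for Cyp2d9, -0.08 for Sult1a1, -0.46 for Cyp4f14, -0.31 for Cyp2c55, -0.18 for Sult4a1 and -0.14 for Cyp3a13, and 0 of the 34 passed. Of all 5526 genes 0 passed there either, so the loss of these calls was not particular to the enzymes. Cyp4f14 had rho = -0.55 over the 21 mice (permutation p = 0.011, adjusted p = 0.815), beside a permutation p of 0.0358 for r (adjusted p = 0.68). Without HL 10B alone 0 of the 34 passed, and 0 of all 5526 genes. Without LL 6 alone 4 of the 34 passed, against 115 of all 5526 genes. Against the smooth muscle genes 8 enzyme genes passed with a positive r over 24 mice (3.68% of all genes) and 0 with a negative r (3.05% of all genes). By rho 0 passed, against 3.54% of all genes with either sign. Over the 21 mice 0 enzyme genes and 0 of all 5536 genes passed. Without HH 10B alone 0 enzyme genes passed, against 82 of all 5536 genes, and without HL 10B alone 0, against 46.

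**Figure D5:**
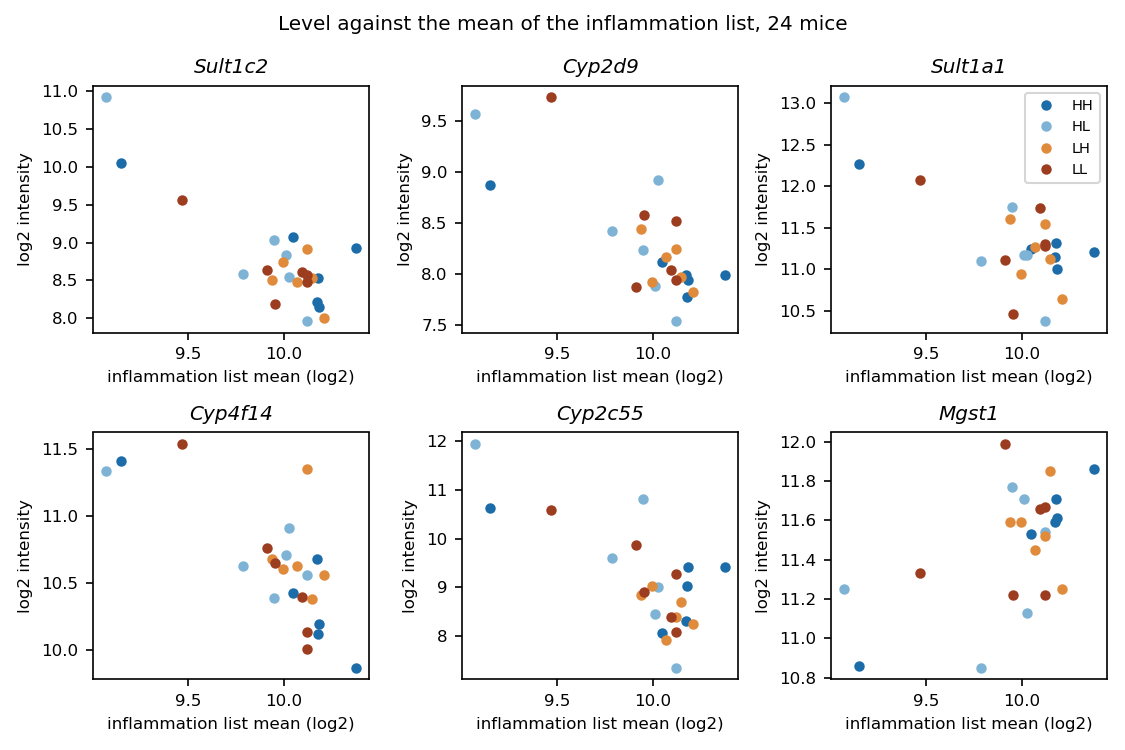
Log2 intensity of 6 enzyme genes (vertical axes) against the mean log2 intensity of the inflammation genes (horizontal axes), 1 point per mouse, coloured by diet group. The 3 points at the left (means of 9.07, 9.16 and 9.47) stand apart from the other 21 (9.79 to 10.38), and Sult1c2 and Sult1a1 lie above all other mice in those 3.

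Some enzyme genes followed the colonocyte markers, on which the 3 mice (11.58 to 11.75) overlapped the others (10.87 to 11.70) but had the first, the third and the fourth highest means. Of the others LH 3B (11.70) lay among them, and the remaining mice were lower than all 3. Over the 24 mice 10 of 34 passed with a positive r, against 10.4% of all genes, and 0 with a negative r, against 12.9%. By rho 5 passed, all positive, against 16.3% of all genes with either sign. The count by r was 3 without the 3 mice. It was 4 without LH 6A, 6 without LL 3B and 2 without the arrays under 25% detected probes. Of all 5524 genes 690, 831 and 409 passed in the same order. LH 6A and LL 3B, with the lowest means of these markers, had 23.5% and 21.9% of probes detected. Over the 24 mice the highest r were those of Cyp4f14, an omega-hydroxylase of leukotriene B4 (r = 0.75, permutation p = 5e-05, adjusted p = 0.00156, rho = 0.60, permutation p = 0.00222, adjusted p = 0.0221), and Gstm2 (r = 0.73, permutation p = 6e-05, adjusted p = 0.00174, rho = 0.69, permutation p = 0.00041, adjusted p = 0.00784). Cyp3a13 (r = 0.66), Sult1a1 (0.63) and Gstt3 (0.58) also passed by rho, whereas Gsto1 (0.57), Sult1c2 (0.55), Sult1d1 (0.54), Cyp2s1 (0.52) and Gstm1 (0.52) passed by r only. Without LL 6 and LL 3B, the mice farthest from the median of the markers, r was 0.66 for Cyp4f14, 0.61 for Gstm2 and 0.57 for Cyp3a13. Within the diet groups, after the group means were removed, r was 0.76 for Cyp4f14 and for Gstm2. Over the 21 mice Gstm2 (r = 0.60, permutation p = 0.00371), Cyp4f14 (r = 0.57, permutation p = 0.00733) and Gsto1 (r = 0.56, permutation p = 0.00871) passed by r and 0 by rho. Of all genes, 19.7% passed by r and 8.33% by rho, with either sign. The r over these mice was 0.46 for Cyp3a13, 0.42 for Sult1a1, 0.43 for Gstt3, 0.23 for Sult1c2, 0.33 for Sult1d1, 0.36 for Cyp2s1 and 0.39 for Gstm1. The lowest r over 24 mice were those of Gsta3 (-0.44), Mgst2 (-0.26), Gstm5 (-0.22), Gstz1 (-0.14) and Mgst1 (-0.03), and 0 of these passed.

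The percentage of probes detected per array, a measure of overall signal, also went with a few genes. Over the 24 mice Gsto1 (r = 0.81), Mgst1 (r = 0.74) and Gstm2 (r = 0.54) passed with a positive and Mgst2 (r = -0.72) with a negative r, against 19.6% and 23.8% of all genes. By rho 3 passed, namely Mgst1 (0.72), Mgst2 (-0.60) and Cyp4f16 (-0.52), against 26.3% of all genes with either sign. Gsto1 (rho = 0.46) and Gstm2 (rho = 0.21) did not pass by rho. Without HL 2A and LL 3B, the mice farthest from the median share, r was 0.63 for Gsto1 and 0.27 for Gstm2. Without LL 12, LH 3B, LH 13 or HL 10B alone 7 passed, against 2328, 2510, 2567 and 2463 of all 5547 genes. Its part in the levels of Gstm2 and Gsto1 was not tested. The mean of the inflammation genes had r = -0.61 with that of the colonocyte and r = -0.79 with that of the smooth muscle genes over the 24 mice. That of the colonocyte genes had r = 0.68 with that of the smooth muscle genes, so the lists are not separate measures. With the percentage of probes detected, r was 0.44 for the colonocyte, 0.27 for the smooth muscle and 0.13 for the inflammation genes.

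Among the 561 pairs of the 34 genes, taken over the 21 mice, 16 passed by r, 5 by rho and 3 by both after adjustment over all pairs. These 3 were Gstp1 with Gstp2 (r = 0.86, permutation p = 1e-05, the smallest the permutations can give, rho = 0.80), Sult1d1 with Ugt2b34 (r = 0.67, permutation p = 0.00075, rho = 0.73) and Gstm1 with Sult1c2 (r = 0.65, permutation p = 0.00129, rho = 0.70). For Gstp1 and Gstp2, which are near-identical genes, the same transcripts may reach both probes. Without the 2 mice farthest from the median of the first gene, r was 0.80, 0.51 and 0.69 in the same order. The median r was 0.23 over the 57 pairs within a family and 0.10 over the others, a description over pairs that share genes and arrays. Pairs of all genes were not computed. These counts and medians therefore have no background beside them and are no result about the enzymes as a family.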

How the data were processed

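Total RNA of the proximal colon of 24 mice (6 per group) was labelled with biotin and hybridised to Illumina MouseWG-6 v2 arrays. The authors deposited the raw intensity of 45281 probes per array, a detection score for each, and quantile-normalized log2 values. Repeating the log2 and quantile steps on the raw intensities gave values within 0.000415 of those they deposited. Exactly 1 gene symbol was given for 34885 probes, several for 18 and none for 10378. The symbols of the 144 genes were looked up in a RefSeq table, where all 144 were found.

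As in the methods, a probe was tested for each diet if, on either side of the contrast, 80% or more of the arrays had it above their 20th percentile. For the interaction and the test of any difference, the same rule had to hold in at least 1 of the 4 groups. This let more probes pass. Contrasts were fitted with limma 3.58.1 in R 4.3.3 with 1 mean for each group and all 24 arrays, two-sided, with Benjamini-Hochberg adjustment over all probes tested. The script was tested on simulated data. Correlations used 100000 permutations of the mice (two-sided), which cannot give a p below 1e-05. The detection limit and the number of arrays set the precision of each value. No 2 arrays were identical, and the highest correlation between arrays was 0.992.

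Named genes were the 5 with the smallest p in each direction for each diet (3 for the interaction) among those detected on at least 12 arrays, the 10 with the largest SD and the 5 at each end of r with the colonocyte markers among those on all arrays, enzymes of known role, and up to 2 genes of each other list. Cyp2c40, Cyp2a4 and Cyp4a12b were named after their values were seen. The genes and lists were chosen with earlier results of these data known. Alternatives were another background correction, scaling, filter or set of probes, the deposited values, the methods' t-test, a detection covariate, a mother block and leaving out mice. The promoters came from a RefSeq table of GRCm38.p6. Of the 4 pairs of mice that share a mother label, the deviations from the group means correlated at 0.61 (10B), 0.40 (10), 0.00 (13) and -0.15 (3B), against a median of -0.02 over other pairs.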

Additional observations from a re-analysis of the deposited data

Results flagged for a closer look

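The outlier test of Dixon was run on the 34 enzyme genes detected on all arrays in each group, 136 groups in all, and 12 had a highest or lowest mouse whose gap to the next was more than 0.625 of the range. If the groups were independent, chance alone would give about 1 in 20, or 6.8 of 136. The 34 genes were measured in the same mice and are not independent, and the rule was not run over all genes. The 12 are therefore not shown to be an excess. Of the 12, 6 belonged to HH 10B, HL 10B or LL 6. Cyp2d9 was at 8.87 in HH 10B (next mouse 8.12), Sult1a1 at 12.27 in HH 10B (next 11.31), and Mgst1 at 10.86 in HH 10B, below the next mouse at 11.53. Sult1c2 was at 10.92 in HL 10B (next 9.03) and at 9.56 in LL 6 (next 8.64), and Cyp4f13 at 9.94 in LL 6 (next 9.2). HH 10 was the lowest of its group for Cyp3a13 at 10.07 (next 10.76) and the highest for Gstp1 at 11.83 (next 11.28). LH 3B was the highest of its group for Cyp4f14 at 11.35 (next 10.68) and for Gsta4 at 9.21 (next 8.52). Mgst2 was at 12.92 in LL 3B (next 12.14), and Gsto1 at 11.09 in HL 2A, below the next mouse at 11.74. HL 2A and LL 3B had the smallest shares of probes detected, 21.2% and 21.9%.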

How the results depend on the processing

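The number of probes past an adjusted p of 0.05 was 0 in each comparison under every alternative run. Of 26 named differences, 21 kept their sign in every alternative and 5 turned, all under median scaling (pre-weaning Gstz1 0.07 and Cyp4f16 0.02, interaction Cyp4f14 0.13, Gsta4 0.16 and Cyp4f40 0.20). Median scaling moved the median of all detected genes to 0.06 (post-weaning), 0.13 (pre-weaning) and 0.36 (interaction), and that of the enzyme genes to 0.05, 0.10 and 0.41. Leaving out mice with few detected probes, with low inflammation genes or with Prss2 detected was chosen after seeing the data. The cause of the changes was not tested.

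The count of enzyme genes at an unadjusted p under 0.05 for the post-weaning diet (3) was 1 under median scaling (2.31% of all genes), 5 without the arrays under 25% detected probes (5.07%), 5 without the 3 mice with Prss2 detected (7.29%), and 1 (LL 6, HH 11A) to 5 (LL 13A, LH 6A) when 1 mouse was left out. For the pre-weaning diet (0) it was 2 under median scaling, with no filter, with the methods' t-test, with the mean over all probes of a gene and without the 3 mice lowest for inflammation (1.95%, 2.47%, 2.51%, 1.86% and 3.3% of all genes), 3 without the Prss2 mice (2.97%), 5 with the detected share as a covariate (2.36%), 6 without the low arrays (3.13%), and 0 to 3 (LL 13A, LL 3B, HL 2A) without 1 mouse. For the interaction (2) it was 5 under median scaling (3.71%) and without the low arrays (3.12%), 4 without the 3 mice lowest for inflammation (3.47%), 1 with the covariate (3.78%), 0 over probes detected on at least 12 arrays (0.843%), and 1 (LL 2C, LL 13, HH 10B) to 4 (LH 6A, HL 8C, LL 3B, HL 8) without 1 mouse. With the mother as a random replicate block (correlation 0.12) the counts were 3, 0 and 4, against 5.86%, 1.82% and 2.9% of all genes. The mother labels pair only 4 pairs of mice, so the block pairs no whole groups.

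Median scaling raised r for nearly all genes alike. With it 96.3% of all genes passed with a positive r for inflammation, 94.7% for colonocytes, 93.4% for smooth muscle and 94.3% for the detected share, so its counts are no result about the enzymes. They were 26 for inflammation (7 with a negative r before, thus reversed), 34 for colonocytes (10 before), 33 for smooth muscle (8 before) and 33 for the detected share (4 before). Without the 3 mice the counts were 0, 2 (3 with the 100000 permutations used elsewhere), 0 and 7 in the same order, against 0%, 19.3%, 0% and 47.1% of all genes with either sign. Without the low arrays 2 passed for colonocytes (7.4% of all genes) and 1 for the detected share (4.31%). Leaving out 1 mouse gave 0 (HL 10B) to 10 (HH 11A) for inflammation, against 0 and 289 of all 5526 genes. For colonocytes it gave 4 (LH 6A) to 12 (HL 10), against 690 and 1386 of all 5524 genes. For smooth muscle it gave 0 (HH 10B) to 9 (LH 13), against 82 and 444 of all 5536 genes. For the detected share it gave 4 (HL 2A, for example) to 7 (LH 13, for example), against 1968 and 2567 of all 5547 genes. Slide as a block was not run, as the headers give no slide. Little can be said of the 92 genes detected on fewer than 12 arrays.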
